A study of Mus musculus with 28 samples.

Results

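Naive T cells are kept small, quiet and able to recirculate by a set of transcription factors and antiproliferative proteins, and 9 of their genes are described here in mouse CD4+ T cells before and after stimulation through the T cell receptor. The genes are Klf2, Klf3, Lef1, Foxp1, Foxo1, Bach2, Tob1, Btg1 and Fbxo32. They are read by 26 of the 45141 probe sets of the array, counting only probe sets whose platform entry names a single gene. Each gene was followed through its brightest probe set, the one with the highest mean log2 intensity over 26 arrays, which makes 9 of the 17097 genes tested. The other 17 member probe sets are used for comparison with it.

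The RNA was that of total CD4+ T cells isolated from spleens of females aged 12 weeks, from 3 strains. C57BL/6 is the reference. B6.Sle1b is congenic for Sle1b, a lupus susceptibility interval on chromosome 1 that holds the SLAM family of lymphocyte receptors. Sle1b.BACSlamf6-H1 is the congenic line with a bacterial artificial chromosome named for Slamf6-H1, an isoform of the SLAM family receptor Ly108, so it carries the interval as well. Cells of each strain were unstimulated or had been cultured on plate-bound antibody to CD3 (clone 145-2C11), part of the T cell receptor complex, at 0.1 µg/ml for 4 h or 24 h. The labels do not say whether the unstimulated cells had been in culture. Changes that go with culture and those that go with anti-CD3 therefore cannot be told apart below. Total CD4+ T cells hold naive, memory and regulatory cells, so fewer cells of a type and less RNA per cell cannot be told apart here. Each of the 9 strain-by-time groups had 3 arrays labelled biological, apart from C57BL/6 at 24 h, which had 2 such arrays and 2 labelled technical that were kept out of the values below.

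The median intensity of an array was 9.06 to 10.5 and its 75th percentile was 34.2 to 53.3. Background, taken from 23 non-specific control probe sets, lay at a log2 intensity of 2.76 to 3.21. The 9 CD4 T cell markers that could be read, among them Cd3e, Cd4 and Cd28, were above background on every array. Markers of other cells were present too. The summed intensity of 12 B cell markers was 1731 to 2440 in unstimulated C57BL/6, 1293 to 1391 in B6.Sle1b and 996 to 1700 in Sle1b.BACSlamf6-H1, and 4 of the 12 were called lower in B6.Sle1b than in C57BL/6 over the 3 times. The summed intensity of 8 neutrophil markers in unstimulated cells was 77.8 to 180.3, 109 to 599 and 157 to 818 in the same order of strains. The CD8 T cell markers, of which 2 could be read, summed to 33.03 to 58.6. At 24 h all 3 plasma cell markers were called lower in each strain, their sum going from 3769 to 6175 down to 1386 to 1936 in C57BL/6, and 2 of 12 B cell markers were called lower in each. The sums of 3 erythroid markers at 24 h were 588 to 1770 against 1376 to 3813 before stimulation in C57BL/6, 1471 to 1741 against 3363 to 3815 in B6.Sle1b and 193 to 941 against 841 to 2190 in Sle1b.BACSlamf6-H1, where 2 of the 3 were called lower, against 0 in the other strains. Sums of monocyte and macrophage markers (7 read) were 744 to 846 at 24 h against 973 to 1381 in C57BL/6, and they were lower without overlap in the other strains too, with 2, 1 and 2 of the 7 called lower and 0, 1 and 1 higher in the 3 strains. Platelet and NK cell marker sums went up at 24 h without overlap in each strain, those of 4 platelet markers from 65.6 to 87.0 up to 147 to 254 in C57BL/6 (1, 2 and 2 of the 4 called higher) and those of 7 NK cell markers from 553 to 721 up to 740 to 1012 (1 of the 7 called higher in each strain, and 3, 1 and 1 lower). The CD4 T cell marker sum was 8137 to 8442 at 24 h against 10836 to 11514 in unstimulated C57BL/6. Over all genes 8.6%, 13.4% and 11.9% were called lower at 24 h in the 3 strains and 15.7%, 14.8% and 17.2% higher. Counts such as 1 of 7 or 2 of 12 markers are near these shares and are not read as a result. Between B6.Sle1b and C57BL/6 over the 3 times, 0.333% of all genes were called. The part of other cells in the results below was not tested. The number of arrays limits the precision. A gene or probe set is called where its adjusted p is under 0.05, and differences are log2 differences ± standard error (SE) from a limma fit over all 26 arrays.

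Klf2 and Klf3 are zinc finger factors of the Krüppel-like family. Klf2 is known in naive T cells for holding back proliferation and for activating S1pr1, the receptor that lets lymphocytes leave lymphoid tissue. Foxo1 is a forkhead factor that the kinase AKT moves out of the nucleus once the T cell receptor and growth factor receptors signal, and Klf2 is among its targets. Foxp1, another forkhead factor, keeps naive T cells in quiescence. Lef1 is a DNA-binding partner of beta-catenin and a relative of Tcf7 that is used in T cell development and in naive cells. Bach2 is a repressor of the basic leucine zipper type that pairs with small MAF proteins and restrains effector differentiation. Tob1 and Btg1 belong to the BTG/TOB family of antiproliferative proteins, which recruit the CCR4-NOT complex that shortens the poly(A) tails of messenger RNA. Fbxo32, also known as atrogin-1, is the substrate-binding part of a ubiquitin ligase and a classical FOXO target of wasting muscle.

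After 24 h on anti-CD3, 7 of the 9 genes were lower than in unstimulated cells in every strain. They were Klf2, Klf3, Lef1, Foxp1, Tob1, Btg1 and Fbxo32. Bach2 went the other way in C57BL/6 and B6.Sle1b. Foxo1 could not be measured. Its only probe set read log2 2.14 to 2.48 over the 26 arrays, under background on each of them, so no size or direction is given for it. The 24 h falls of the other 7 ranged in C57BL/6 from 0.70 for Foxp1 to 2.39 for Fbxo32 on the log2 scale.

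At 4 h in C57BL/6, 5 members were called lower (background: 2.97% of all genes) and 1 higher (4.08%). At 24 h the counts were 7 lower (8.6%) and 1 higher (15.7%). In B6.Sle1b they were 3 lower (3.12%) and 1 higher (2.57%) at 4 h, then 7 lower (13.4%) and 1 higher (14.8%) at 24 h. In Sle1b.BACSlamf6-H1 they were 6 lower (6.35%) and 0 higher (4.22%) at 4 h, then 7 lower (11.9%) and 0 higher (17.2%) at 24 h. The median log2 difference of the 8 measurable members at 24 h was -1.60, -1.93 and -2.20 in the 3 strains, beside 0.04, 0.07 and 0.06 over all genes. The counts of members called lower at 24 h therefore exceed the share of all genes called lower in each strain. The 3 strains' unstimulated arrays serve both times, so the 4 h and 24 h values of a strain share their controls.

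**Figure D1:**
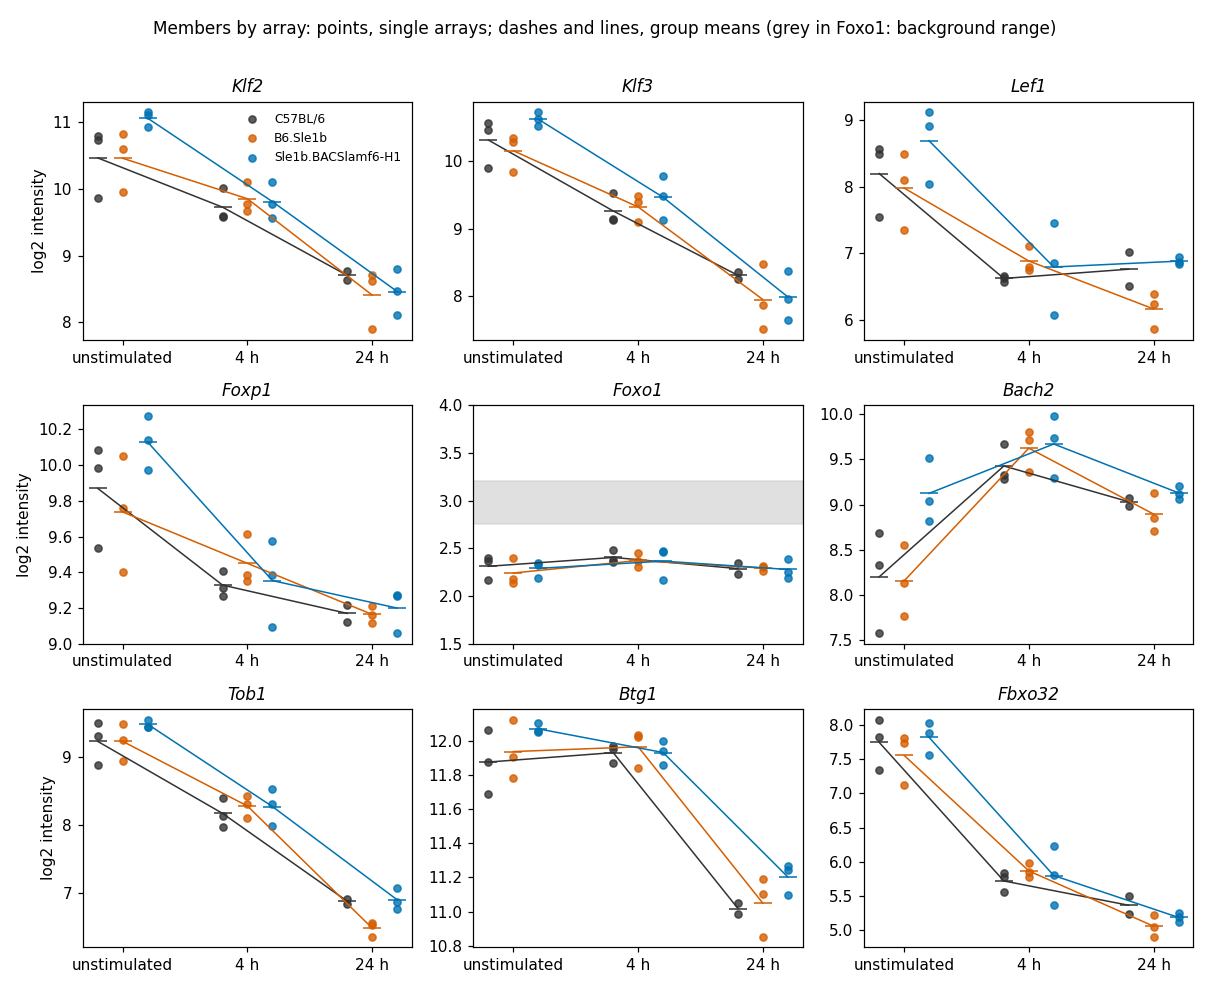
Log2 intensity of the 9 genes (y axis, brightest probe set) in unstimulated cells and after 4 h and 24 h on anti-CD3 (x axis), by strain. Points are single arrays, dashes and lines are group means, and the grey band in the Foxo1 panel is the range of array backgrounds. A reader should see 7 genes that end lower, Bach2 with its peak at 4 h, and Foxo1 under background on all arrays.

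The group means of Klf2 went down from each time to the next in every strain. In C57BL/6 its log2 intensity was 10.74, 9.87 and 10.79 in the 3 unstimulated arrays, 10.01, 9.58 and 9.59 at 4 h, and 8.64 and 8.77 at 24 h. The 4 h arrays overlapped the unstimulated ones through the low array 2, whereas every 24 h array lay below all others. The difference at 4 h was -0.74 ± 0.26 and was not called (adjusted p = 0.105), and without unstimulated array 2 it was -1.04 (adjusted p = 0.0116). At 24 h Klf2 had fallen 3.39-fold (log2 -1.76 ± 0.29, adjusted p = 6.04e-05). In B6.Sle1b it read 10.60, 10.82 and 9.96, then 9.78, 10.11 and 9.67, then 7.90, 8.71 and 8.62. That is -0.61 ± 0.26 at 4 h, which was not called (adjusted p = 0.252), and -2.05 ± 0.26 at 24 h (adjusted p = 1.81e-06). Sle1b.BACSlamf6-H1 started highest, at 11.15, 11.11 and 10.93, and went to 10.10, 9.56 and 9.77 and then to 8.47, 8.81 and 8.12. Its falls of -1.25 ± 0.26 and -2.60 ± 0.26 were both called (adjusted p = 0.00252 and 5.3e-08). The share of the 24 h fall already present at 4 h was 41.9% for C57BL/6, 29.6% for B6.Sle1b and 48.1% for Sle1b.BACSlamf6-H1.

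Klf3, a repressor of the same family, followed Klf2 closely (Pearson r = 0.995 over the 9 group means, a description over values that share libraries). Its unstimulated arrays read log2 10.46, 9.90 and 10.57 in C57BL/6, 10.28, 10.34 and 9.83 in B6.Sle1b, and 10.72, 10.62 and 10.52 in Sle1b.BACSlamf6-H1. At 24 h they read 8.36 and 8.26, then 7.50, 8.47 and 7.86, then 7.95, 8.37 and 7.64. No 24 h array reached an unstimulated one in any strain, and the falls were 4.02-fold, 4.62-fold and 6.22-fold (adjusted p = 3.38e-06, 1.52e-07 and 9.49e-09). At 4 h Klf3 was already lower by -1.05 ± 0.23, -0.83 ± 0.23 and -1.16 ± 0.23 (adjusted p = 0.00567, 0.0369 and 0.00206). The B6.Sle1b call at 4 h was lost without any of 5 single arrays, with adjusted p of 0.139 and 0.14 without unstimulated array 1 or 2 and 0.0834, 0.057 and 0.17 without 4 h array 1, 2 or 3. Klf3 is read by 6 probe sets. All of them were called lower at 24 h in each strain, by -1.08 to -3.30 for the 5 brightest; the dimmest lay at background on 4 of the 8 arrays at 24 h, so its size is not given.

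The promoters of Klf2, Klf3 and Tob1, the members that fell in steps, are shown with the letters of the Krüppel-like factor motif CCACCC in capitals on either strand (its reverse is GGGTGG). The Tob1 window lies inside the annotated span of its gene. Sequences are RefSeq windows of assembly GRCm38.p6, from 250 bases before to 50 bases after a transcript start, 5′ to 3′ on the plus strand, at chr8:72318812-72319111 for Klf2, chr5:64803271-64803570 for Klf3 and chr11:94211204-94211503 for Tob1.
Klf2: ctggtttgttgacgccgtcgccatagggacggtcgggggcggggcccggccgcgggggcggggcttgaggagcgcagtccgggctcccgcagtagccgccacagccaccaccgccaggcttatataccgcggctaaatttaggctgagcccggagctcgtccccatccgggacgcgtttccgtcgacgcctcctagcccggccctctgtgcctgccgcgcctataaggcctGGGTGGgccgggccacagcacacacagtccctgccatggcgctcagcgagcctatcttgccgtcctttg
Klf3: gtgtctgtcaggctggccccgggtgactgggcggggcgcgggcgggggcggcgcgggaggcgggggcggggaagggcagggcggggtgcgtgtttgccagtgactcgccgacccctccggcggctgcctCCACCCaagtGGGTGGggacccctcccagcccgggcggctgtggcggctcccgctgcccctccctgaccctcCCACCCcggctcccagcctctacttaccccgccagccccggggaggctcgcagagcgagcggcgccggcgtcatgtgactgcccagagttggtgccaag
Tob1: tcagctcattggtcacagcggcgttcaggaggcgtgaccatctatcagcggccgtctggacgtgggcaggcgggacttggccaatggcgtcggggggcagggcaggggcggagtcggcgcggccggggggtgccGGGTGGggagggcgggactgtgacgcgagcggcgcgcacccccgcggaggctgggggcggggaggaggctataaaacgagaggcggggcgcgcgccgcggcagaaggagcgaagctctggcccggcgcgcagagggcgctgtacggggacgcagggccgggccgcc
The capital letters begin at -19 in Klf2, at -121, -111 and -49 in Klf3 and at -116 in Tob1, counted from the transcript start. Of 32851 such windows, 31.5% hold a match on either strand, so a match is common, and it is a description of the letters only. The same letters occur in 3 of the 4 windows of Lef1 and 2 of the 3 of Foxp1, whose shares at 4 h in C57BL/6 were larger. Windows 1 and 2 of Lef1 overlap and hold the same match. The letters occur in no window of Foxo1, Bach2 or Btg1. RefSeq windows were found for 8 of the 9 genes.

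Tob1 fell at both times in every strain. Its log2 intensity in C57BL/6 was 9.31, 8.88 and 9.51, then 8.40, 7.98 and 8.14 at 4 h, then 6.92 and 6.84 at 24 h. The values were 9.26, 9.50 and 8.95, then 8.31, 8.43 and 8.11, then 6.36, 6.57 and 6.53 in B6.Sle1b, and 9.55, 9.45 and 9.45, then 8.53, 7.99 and 8.31, then 6.86, 7.08 and 6.77 in Sle1b.BACSlamf6-H1. The 3 time points did not overlap in any strain. Tob1 was lower by -1.06 ± 0.17, -0.95 ± 0.17 and -1.21 ± 0.17 at 4 h (adjusted p = 1.76e-04, 6.93e-04 and 3.44e-05). It was lower by -2.35 ± 0.19, -2.75 ± 0.17 and -2.59 ± 0.17 at 24 h, a 5.11-fold, 6.72-fold and 6.00-fold fall (adjusted p = 3.69e-09, 4.35e-11 and 9.28e-11). The step from 4 h to 24 h was called in each strain as well, at -1.29 ± 0.19, -1.80 ± 0.17 and -1.37 ± 0.17. A second Tob1 probe set lay under background on every array and gives no value.

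Btg1, the brightest member, fell late. Its log2 intensity was 12.06, 11.69 and 11.88 in unstimulated C57BL/6 cells and 11.97, 11.95 and 11.87 at 4 h, so that these groups overlapped, and 10.98 and 11.05 at 24 h. The 4 h differences of 0.06 ± 0.11, 0.03 ± 0.11 and -0.14 ± 0.11 in the 3 strains were not called, with 95% confidence intervals of -0.18 to 0.29, -0.21 to 0.26 and -0.37 to 0.09. At 24 h Btg1 was lower by -0.86 ± 0.13, -0.89 ± 0.11 and -0.87 ± 0.11 (adjusted p = 1.43e-05, 1.73e-06 and 2.06e-06). A dimmer second probe set of Btg1 showed a deeper fall, from log2 8.48, 7.48 and 8.43 to 5.67 and 4.81 in C57BL/6. Its 24 h differences were -2.90 ± 0.41, -3.08 ± 0.37 and -2.11 ± 0.37, all called over the 45037 probe sets tested (adjusted p = 1.49e-05, 1.21e-06 and 1.21e-04). The probe sets both put Btg1 lower at 24 h and neither was called at 4 h.

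In the rest of the BTG/TOB family, Btg2 fell by -2.11 ± 0.23 and Tob2 by -1.33 ± 0.30 at 24 h in C57BL/6 (adjusted p = 3.83e-07 and 0.00163), whereas Btg3 and Btg4 were not called. The 4 h difference of Btg2 was -0.06 ± 0.21 and was not called (adjusted p = 0.968). Of 9 measured genes of CCR4-NOT, 3 were lower (8.6% of all genes) and 2 higher (15.7%) in C57BL/6 at 24 h, the latter a share near that of all genes, and the median over the 9 was -0.24. The catalytic subunits Cnot6 and Cnot6l were lower by -1.31 ± 0.16 and -1.31 ± 0.17 (adjusted p = 1.85e-06 and 3.78e-06), as was Cnot2, a subunit of the NOT module (-0.76 ± 0.15, adjusted p = 4.1e-04). Cnot9 rose by 1.14 ± 0.23 (adjusted p = 5.6e-04).

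Fbxo32 and Lef1 had most of their 24 h difference at 4 h in each strain, though Lef1 was not called at 4 h in B6.Sle1b. Fbxo32 read log2 7.83, 7.34 and 8.08 in unstimulated C57BL/6 cells, 5.83, 5.56 and 5.77 at 4 h and 5.49 and 5.23 at 24 h. Stimulated and unstimulated arrays did not overlap, and the same held for B6.Sle1b (7.82, 7.73 and 7.13, then 5.98, 5.85 and 5.78, then 5.04, 4.91 and 5.22) and for Sle1b.BACSlamf6-H1 (7.88, 8.03 and 7.56, then 6.23, 5.36 and 5.80, then 5.19, 5.25 and 5.12). At 4 h the fall was 4.09-fold in C57BL/6 (log2 -2.03 ± 0.21, adjusted p = 6.65e-07), 3.23-fold in B6.Sle1b and 4.07-fold in Sle1b.BACSlamf6-H1. At 24 h it was 5.23-fold, 5.66-fold and 6.22-fold. Thus 85.1%, 67.6% and 76.8% of the 24 h difference was present at 4 h. The further step from 4 h to 24 h was not called for C57BL/6 (-0.36 ± 0.23, adjusted p = 0.398) and was called for B6.Sle1b (-0.81 ± 0.21, adjusted p = 0.0052) and for Sle1b.BACSlamf6-H1 (-0.61 ± 0.21, adjusted p = 0.033). The last call was lost without 5 of the 6 single arrays it rests on, and without 4 h array 1 the step was -0.40 (adjusted p = 0.207). The 3 probe sets of Fbxo32 all fell at 24 h in each strain, by -1.67 to -2.64.

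Lef1 varied widely between arrays of a group. Unstimulated arrays read log2 8.49, 7.54 and 8.56 in C57BL/6, 8.09, 8.49 and 7.35 in B6.Sle1b and 8.91, 9.11 and 8.05 in Sle1b.BACSlamf6-H1. At 4 h they read 6.66, 6.63 and 6.57, then 6.80, 7.11 and 6.74, then 7.45, 6.07 and 6.86, and at 24 h 7.02 and 6.50, then 6.39, 6.24 and 5.86, then 6.84, 6.94 and 6.87. All stimulated arrays lay below all unstimulated ones within each strain. The 4 h differences were -1.58 ± 0.33 (adjusted p = 0.00329), -1.10 ± 0.33 (adjusted p = 0.0542, not called) and -1.90 ± 0.33 (adjusted p = 4.58e-04). The B6.Sle1b value was -1.41 when its unstimulated array 3 was left out (adjusted p = 0.0125), and it passed unaltered in size when unstimulated C57BL/6 array 2, unstimulated Sle1b.BACSlamf6-H1 array 3 or Sle1b.BACSlamf6-H1 4 h array 1 or 2 was left out (adjusted p = 0.0268 to 0.0381). At 24 h Lef1 was lower by -1.44 ± 0.37, -1.82 ± 0.33 and -1.81 ± 0.33 (adjusted p = 0.00499, 1.60e-04 and 1.48e-04), and in C57BL/6 by -1.18 without 24 h array 2 (adjusted p = 0.0913). The technical C57BL/6 arrays at 24 h, kept out of these values, had a higher Lef1 mean of log2 7.34, against 6.76 for the biological ones. The step from 4 h to 24 h was 0.14 ± 0.37 for C57BL/6, -0.72 ± 0.33 for B6.Sle1b (adjusted p = 0.131) and 0.09 ± 0.33 for Sle1b.BACSlamf6-H1, none of them called. Of the related factors, Tcf7l1 and Tcf7l2 could be read and neither was called in any response from the unstimulated state. Tcf7 was not analysed here.

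Foxp1 and Btg1 had the smallest 24 h differences among the members that fell. Its brightest probe set read log2 9.98, 9.54 and 10.09 in unstimulated C57BL/6 cells, 9.41, 9.27 and 9.31 at 4 h and 9.12 and 9.22 at 24 h. The unstimulated arrays lay above all others by a small margin. The 24 h differences were -0.70 ± 0.18, -0.57 ± 0.16 and -0.93 ± 0.16 in the 3 strains (adjusted p = 0.00419, 0.0074 and 6.26e-05). Leaving out the C57BL/6 24 h array 1 gave -0.65 (adjusted p = 0.0525) and leaving out the unstimulated B6.Sle1b array 2 gave -0.42 (adjusted p = 0.0693), so these calls rest on single arrays. At 4 h Foxp1 was called in C57BL/6 (-0.54 ± 0.16, adjusted p = 0.0381) and Sle1b.BACSlamf6-H1 (-0.78 ± 0.16, adjusted p = 0.00207) and not in B6.Sle1b (-0.29 ± 0.16, adjusted p = 0.461), where the difference was -0.13 without unstimulated array 2 and -0.46 without unstimulated array 3 (adjusted p = 0.818 and 0.097). The C57BL/6 call at 4 h was lost without unstimulated array 1 or 3 and without any of the 3 arrays at 4 h (adjusted p = 0.0627 to 0.209), the smallest value being -0.43 without unstimulated array 3.

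The 7 probe sets of Foxp1 differed in their course. Ranked by brightness, sets 1, 2, 3, 5 and 7 were called lower at 24 h in every strain. Set 7 fell most, from log2 8.20, 6.85 and 8.17 to 5.88 and 5.44 in C57BL/6 (-2.08 ± 0.47, adjusted p = 0.00236). Sets 4 and 6 had their lowest group means at 4 h. In C57BL/6 set 4 read 7.74, 6.91 and 7.80, then 7.17, 7.10 and 6.98, then 7.48 and 7.14. Its differences were -0.40 ± 0.26 at 4 h and -0.17 ± 0.29 at 24 h, and those of set 6 were -0.77 ± 0.35 and -0.27 ± 0.40, none of them called. The lowest mean at 4 h held in each strain for both sets, and neither set was called at 24 h in any strain. Which transcript of Foxp1 each probe set reads is not given in the files.

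Among the other forkhead factors of the FOXO and FOXP groups that could be read, Foxo4 was lower at 24 h in C57BL/6 (-1.16 ± 0.18, adjusted p = 3.83e-05) and in the other strains. Foxo3 was called in B6.Sle1b (-0.70 ± 0.25, adjusted p = 0.0436) and Sle1b.BACSlamf6-H1 (-0.87 ± 0.25, adjusted p = 0.0114) and not in C57BL/6 (-0.46 ± 0.28). Foxp3, the factor of regulatory T cells, was higher at 4 h in C57BL/6 (1.35 ± 0.38, adjusted p = 0.0314) and had a 24 h difference of -0.03 ± 0.42.

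**Figure D2:**
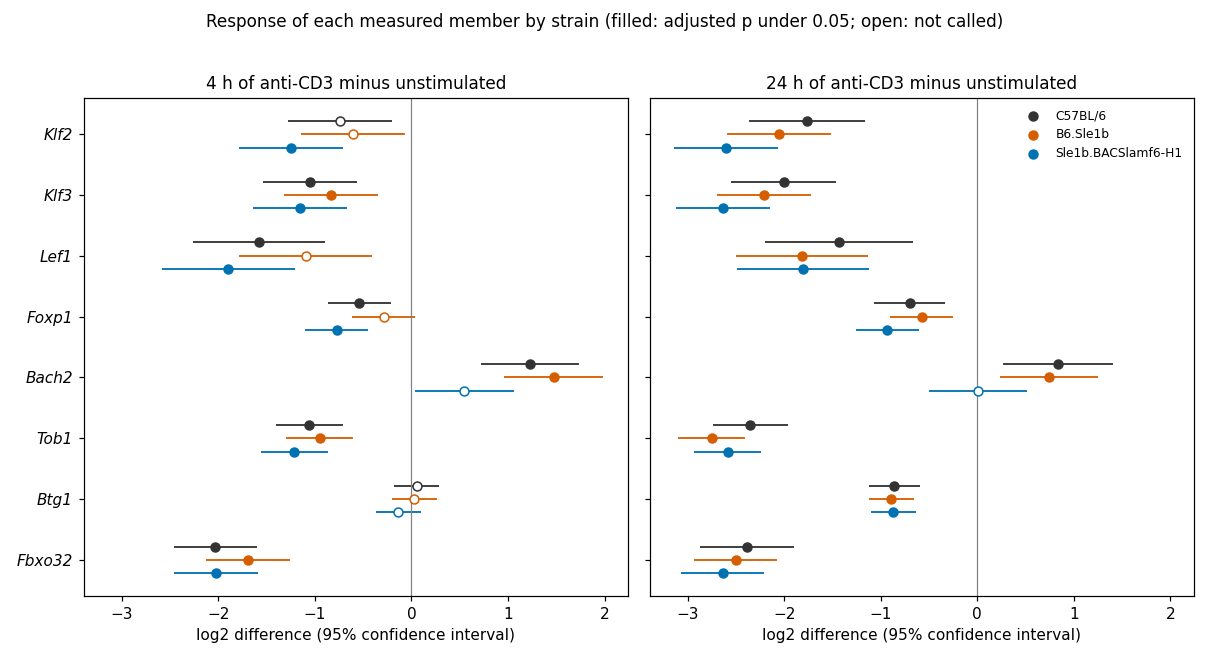
Log2 difference from unstimulated cells of the 8 measurable genes at 4 h (left) and 24 h (right) by strain, with 95% confidence intervals. Filled points passed an adjusted p of 0.05 and open points did not. Fbxo32 and Lef1 lie far to the left at both times, Btg1 only at 24 h, and Bach2 lies to the right in C57BL/6 and B6.Sle1b.

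**Figure D3:**
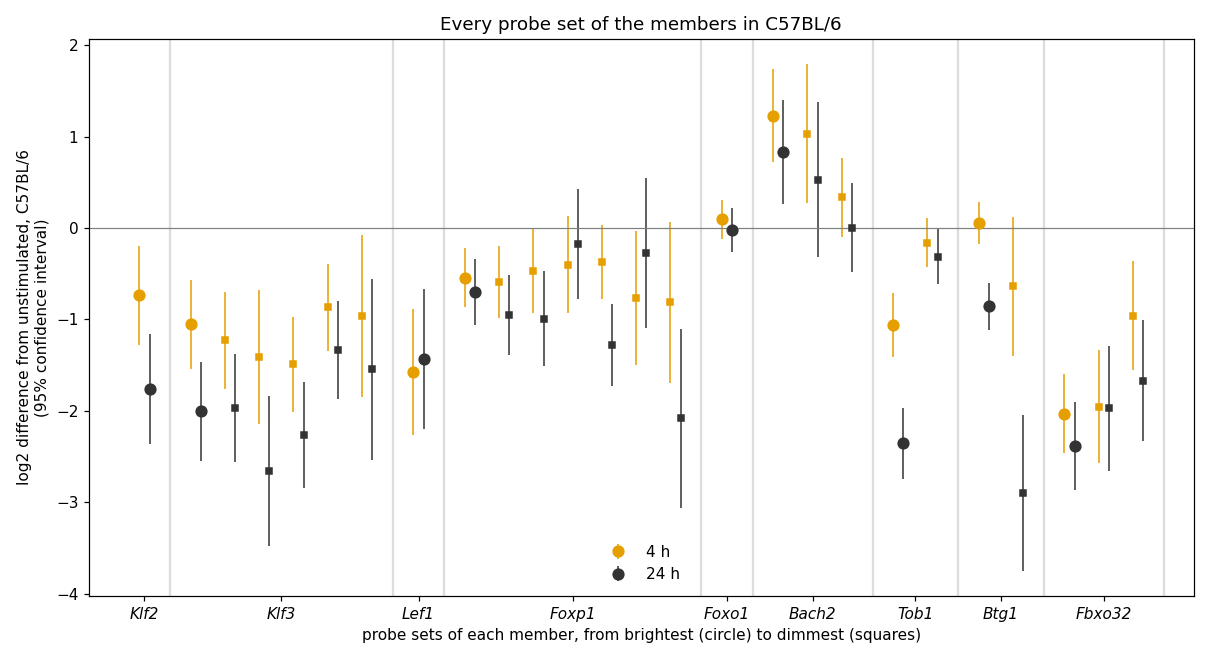
Log2 difference from unstimulated cells in C57BL/6 at 4 h and 24 h with 95% confidence intervals for all 26 probe sets, grouped by gene from the brightest to the dimmest. Klf3 and Fbxo32 probe sets lie below 0 throughout, those of Foxp1 spread from -0.17 to -2.08 at 24 h, and the second Btg1 probe set falls by 2.90 against 0.86 for the first.

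Over all 26 probe sets of the members, 9 were called lower in C57BL/6 at 4 h (background: 2.27% of the 45037 probe sets) and 19 at 24 h (8.98%). The counts were 4 (1.95%) and 19 (12.9%) in B6.Sle1b and 13 (4.02%) and 19 (12.8%) in Sle1b.BACSlamf6-H1. Probe sets of the same gene share their target and are not independent.

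Bach2 was the exception. Its log2 intensity in C57BL/6 was 8.69, 7.58 and 8.33 before stimulation, 9.67, 9.33 and 9.28 at 4 h and 8.99 and 9.08 at 24 h. In B6.Sle1b it was 8.13, 8.56 and 7.77, then 9.71, 9.80 and 9.36, then 8.86, 9.13 and 8.70. All stimulated arrays of these strains lay above the unstimulated ones. Bach2 rose 2.35-fold in C57BL/6 (log2 1.23 ± 0.25, adjusted p = 0.00213) and 2.78-fold in B6.Sle1b (1.47 ± 0.25, adjusted p = 3.86e-04) at 4 h. At 24 h it was higher by 0.83 ± 0.27 and 0.74 ± 0.25 (adjusted p = 0.0283 and 0.0259), and in B6.Sle1b it had come down from its 4 h level by -0.73 ± 0.25 (adjusted p = 0.0323). The 24 h calls rest on single arrays. Leaving out unstimulated C57BL/6 array 2 made the difference 0.52 (adjusted p = 0.155), and without C57BL/6 24 h array 1 or 2 it was 0.88 or 0.79 (adjusted p = 0.103 and 0.148). For B6.Sle1b the 24 h call was lost without unstimulated array 1 or 3 or 24 h array 1 or 2, with the smallest difference, 0.55, without unstimulated array 3 (adjusted p = 0.116). The call of the later step down was lost without 4 h array 1 or 2 or 24 h array 1 or 3 (-0.63 without the last, adjusted p = 0.128).

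In Sle1b.BACSlamf6-H1 Bach2 started higher, at log2 9.51, 9.04 and 8.82, and read 9.98, 9.29 and 9.74 at 4 h and 9.06, 9.21 and 9.12 at 24 h. These groups overlapped. The differences of 0.55 ± 0.25 at 4 h (adjusted p = 0.177) and 0.01 ± 0.25 at 24 h (adjusted p = 0.994) were not called, with a 95% confidence interval of -0.50 to 0.52 at 24 h. With log2 of each array's 75th percentile as a covariate the 4 h difference was 0.80 and was called (adjusted p = 3.17e-04), and its step from 4 h to 24 h was -0.73 and called without 4 h array 2 (adjusted p = 0.0497). The second Bach2 probe set gave 1.03 ± 0.36, 1.61 ± 0.36 and 0.48 ± 0.36 at 4 h, called in B6.Sle1b only (adjusted p = 0.0114). The dimmest Bach2 probe set gave 0.34 to 0.50 and was not called. At 24 h neither of these dimmer probe sets was called in C57BL/6 or B6.Sle1b, although their differences there lay above 0. The 24 h calls of Bach2 thus rest on its brightest probe set, the only 1 of the 26 member probe sets called higher there.

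The Bach2 promoter window of RefSeq (GRCm38.p6, chr4:32417185-32417484, plus strand) lies inside the annotated span of the gene. It is shown because Bach2 is the member that rose, with its match to the TCF/LEF motif CTTTGA (reverse TCAAAG) in capitals.
Bach2: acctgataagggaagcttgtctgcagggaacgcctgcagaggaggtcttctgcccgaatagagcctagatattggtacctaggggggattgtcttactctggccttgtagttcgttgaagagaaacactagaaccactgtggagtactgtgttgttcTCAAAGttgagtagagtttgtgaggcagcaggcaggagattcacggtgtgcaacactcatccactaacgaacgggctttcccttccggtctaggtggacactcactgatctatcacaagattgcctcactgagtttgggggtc
The match begins at -93 from the transcript start. These letters occur on either strand in 16% of the 32851 windows, and the Bach2 window holds neither CCACCC nor the forkhead letters GTAAACA. The latter, present in 3.65% of windows, occur in that of Btg1 at -204. Among genes near Bach2 in function, Bach1 was lower at 24 h in C57BL/6 (-0.61 ± 0.16, adjusted p = 0.00619), as was Maff (-1.50 ± 0.23, adjusted p = 2.13e-05), while Mafk and Mafg were not called in C57BL/6.

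From 4 h to 24 h, 4 members were called lower in C57BL/6 (background: 6.67%), 6 in B6.Sle1b (11.1%) and 5 in Sle1b.BACSlamf6-H1 (7.82%). The number called higher was 0 in each strain, beside 12%, 13.1% and 16.9% of all genes, shares at which few of 9 genes would be called. Klf2, Klf3, Tob1 and Btg1 were lower at this step in all 3 strains. For Klf2 in C57BL/6 it was -1.02 ± 0.29 (adjusted p = 0.0139), and -0.88 without 4 h array 1, -0.96 without 24 h array 1 and -1.09 without 24 h array 2 (adjusted p = 0.0641, 0.118 and 0.0598). For Klf3 it was -0.95 ± 0.26 (adjusted p = 0.011), and -0.82 without 4 h array 1, with calls lost without each of the same 3 arrays (adjusted p = 0.0535, 0.0594 and 0.088). Btg1 was lower by -0.91 ± 0.13, -0.92 ± 0.11 and -0.73 ± 0.11. In C57BL/6 the 4 h difference amounted to 110% of the 24 h difference for Lef1, 85.1% for Fbxo32 and 77.3% for Foxp1, against 41.9% to 52.4% for Klf2, Klf3 and Tob1. The Lef1 share leaves out the technical 24 h arrays, which read Lef1 higher. The shares lay lower in B6.Sle1b, at 60.3%, 67.6% and 50.2% against 29.6% to 37.8%. For Sle1b.BACSlamf6-H1 they were 105%, 76.8% and 83.4% against 43.9% to 48.1%. Whether the members' courses differ from each other was not tested.

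Levels before stimulation were compared next, which asks whether the Sle1b interval or the added chromosome goes with another resting state. No member was called between strains in any of the 9 comparisons at a single time or the 3 over the mean of the times, with limma. Between B6.Sle1b and C57BL/6 the share of all genes called was 0.123% unstimulated, 0.0409% at 4 h, 0.0409% at 24 h and 0.333% over the mean. The members' unstimulated differences there ranged from -0.22 ± 0.33 for Lef1 to 0.06 ± 0.11 for Btg1. Between Sle1b.BACSlamf6-H1 and C57BL/6 the background was 0.0585%, 0.0643%, 0.0351% and 0.228%, and between Sle1b.BACSlamf6-H1 and B6.Sle1b it was 0.0819%, 0%, 0% and 0.0819%. The number of members with an unadjusted p under 0.05 was 2 unstimulated, 0 at 4 h, 0 at 24 h and 1 over the mean in the former, and 4, 0, 2 and 3 in the latter. Between B6.Sle1b and C57BL/6 those numbers were 0, 0, 1 and 0, the 1 being Tob1 at 24 h (-0.40 ± 0.19, adjusted p = 0.994).

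Sle1b.BACSlamf6-H1 had the highest unstimulated mean for all 8 measurable members, although for Fbxo32 this order turned without unstimulated C57BL/6 array 2. The values against B6.Sle1b were 0.97 ± 0.25 for Bach2, 0.71 ± 0.33 for Lef1, 0.60 ± 0.26 for Klf2, 0.47 ± 0.23 for Klf3, 0.39 ± 0.16 for Foxp1, 0.26 ± 0.21 for Fbxo32, 0.25 ± 0.17 for Tob1 and 0.13 ± 0.11 for Btg1. Their median was 0.43, beside -0.04 over all genes, and none passed (adjusted p = 0.272 for Bach2 and 0.525 to 0.796 for the rest). For Bach2, Klf2 and Klf3 the 3 arrays of Sle1b.BACSlamf6-H1 all lay above those of B6.Sle1b. The share of all genes without overlap was not computed, here or for the responses above. Such a separation of 3 arrays from 3 is weak by itself. In this comparison 1390 of the 17097 genes had an unadjusted p under 0.05 with limma and 14 were called. Against C57BL/6 the values were 0.93 ± 0.25 for Bach2 (adjusted p = 0.54), 0.60 ± 0.26 for Klf2 and 0.07 ± 0.21 (Fbxo32) to 0.49 ± 0.33 (Lef1) for the others. Without array 2 of unstimulated C57BL/6 and 2 further arrays of low 75th percentile, Klf2 was 0.30 ± 0.22 above C57BL/6, Lef1 0.16 ± 0.25, Klf3 0.10 ± 0.22, Btg1 0.10 ± 0.11, Foxp1 0.09 ± 0.12 and Tob1 0.08 ± 0.14, and Fbxo32 was -0.13 ± 0.15. The 2 comparisons share the arrays of Sle1b.BACSlamf6-H1.

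The distribution of intensities on an array moved with these levels. In unstimulated cells, array 2 of C57BL/6 had a 75th percentile of 34.8 and array 3 of B6.Sle1b one of 35.6, and at 4 h array 2 of Sle1b.BACSlamf6-H1 had one of 34.2. These low percentiles went with the 3 highest medians (10.5, 10.4 and 10.5), so the values of these arrays were spread over a narrower range. Array 3 of B6.Sle1b at 24 h was much like them (75th percentile 35.6, median 10.2), so the line between these 3 and the rest is arbitrary. The first 2 held the lowest reading of their group for each of the 8 measurable members, whereas the arrays of unstimulated Sle1b.BACSlamf6-H1 had percentiles of 43.3 to 51.3. The deviation of an array from its group mean correlated with log2 of its 75th percentile at r = 0.82 for Lef1, 0.75 for Bach2 and Fbxo32, 0.73 for Foxp1, 0.72 for Tob1, 0.58 for Klf3, 0.57 for Klf2 and 0.50 for Btg1 (26 arrays, which share their normalization; a description). With log2 of the 75th percentile as a covariate Bach2 was called, at 0.84 ± 0.14 against B6.Sle1b (adjusted p = 0.00446) and 0.74 ± 0.14 against C57BL/6 (adjusted p = 0.0303). Without the 3 low-percentile arrays it was 0.78 ± 0.19 and 0.62 ± 0.19 and was not called (adjusted p = 0.171 and 1). Leaving out the fourth array as well was a setting added after seeing the data. As a 24 h array it has no part in these differences, which could only stay the same (adjusted p = 0.176 and 1). Without the 3 arrays Klf2 was 0.35 ± 0.22 above B6.Sle1b and Lef1 0.40 ± 0.25. The same exclusion raised the count of members called at 4 h in B6.Sle1b from 4 to 7, adding Klf2 (-0.86, adjusted p = 0.0117), Lef1 (-1.41, adjusted p = 5.12e-04) and Foxp1 (-0.46, adjusted p = 0.0158). It also raised the number of all 17097 genes called there from 973 to 2011, so the gain in calls was not particular to the members. The count was 7 without the fourth array too, which has no part in the 4 h differences and acts only through the shared spread.

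**Figure D4:**
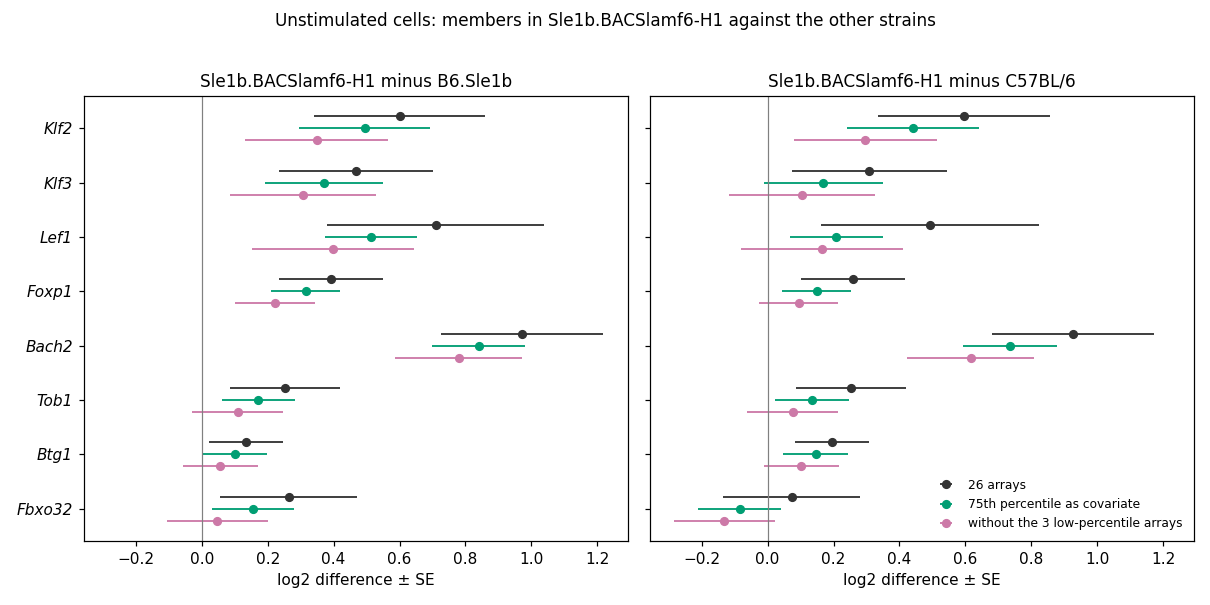
Log2 difference ± SE of the 8 measurable genes in unstimulated Sle1b.BACSlamf6-H1 cells against B6.Sle1b (left) and C57BL/6 (right), with all 26 arrays, with log2 of the 75th percentile of an array as a covariate, and without the 3 arrays of low 75th percentile. Most points lie right of 0 and are nearer to it without those arrays, Fbxo32 against C57BL/6 crosses to -0.13, and Bach2 lies farthest right, from 0.97 with all arrays to 0.78 without those 3 against B6.Sle1b.

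**Figure D5:**
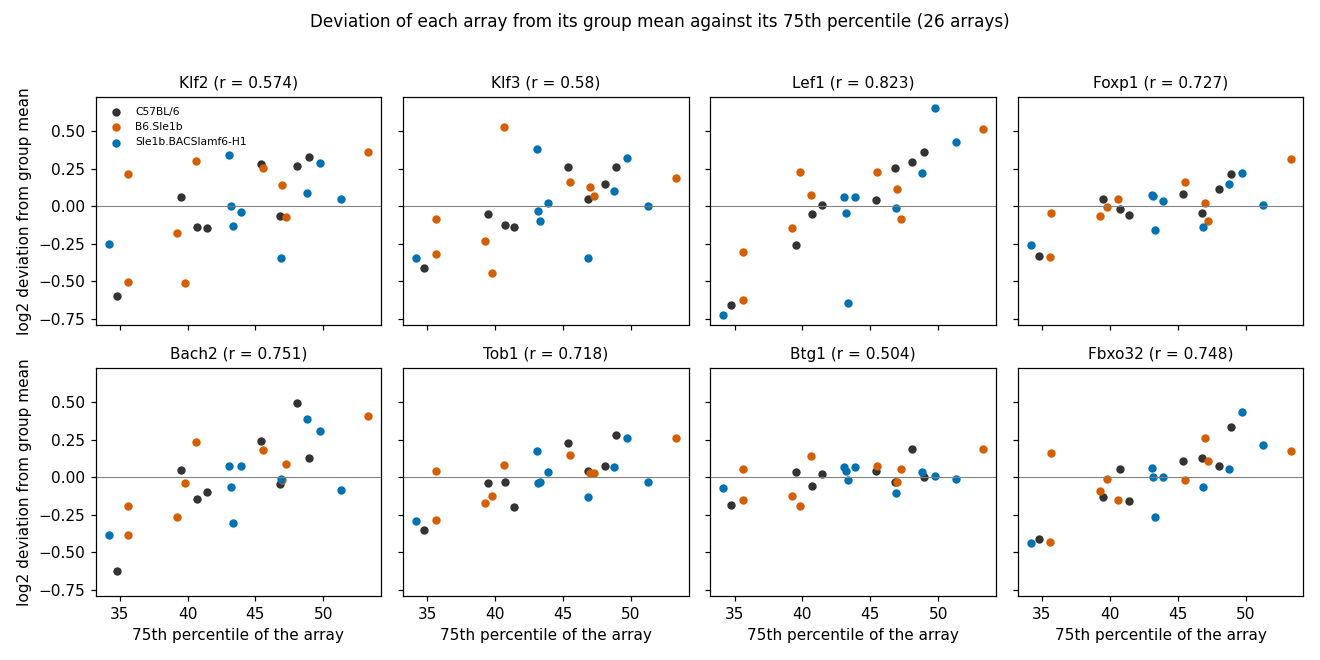
Deviation of each array from its group mean (y axis, log2) against the 75th percentile of the array (x axis, linear intensity) for the 8 measurable genes on 26 arrays, coloured by strain. The points rise from left to right, with r from 0.50 for Btg1 to 0.82 for Lef1.

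Responses were also compared between strains, as the difference of differences. No member was called in any of these 6 contrasts, for which the share of all genes called was 0% in 5 and 0.00585% for the 24 h response of Sle1b.BACSlamf6-H1 against B6.Sle1b. Members with an unadjusted p under 0.05 numbered 2 and 1 at 4 h and 24 h for Sle1b.BACSlamf6-H1 against B6.Sle1b, 0 and 2 against C57BL/6, and 0 and 0 for B6.Sle1b against C57BL/6. The Bach2 response at 4 h in Sle1b.BACSlamf6-H1 minus that in B6.Sle1b was -0.93 ± 0.35 (adjusted p = 0.774; 95% confidence interval -1.65 to -0.20) and at 24 h it was -0.74 ± 0.35 (adjusted p = 0.959). Klf2 differed by -0.84 ± 0.39 between Sle1b.BACSlamf6-H1 and C57BL/6 at 24 h (adjusted p = 1), and by -0.54 without unstimulated C57BL/6 array 2. Both contrasts draw on the unstimulated arrays described above. For Tob1, Btg1 and Fbxo32 the 24 h response of Sle1b.BACSlamf6-H1 differed from that of B6.Sle1b by 0.16, 0.02 and -0.14, with 95% confidence intervals of -0.33 to 0.66, -0.31 to 0.35 and -0.75 to 0.48.

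Other genes of the quiescence programme also differed between stimulated and unstimulated cells. Beside the list counts given here and below, 2.97% of all genes were called lower and 4.08% higher at 4 h in C57BL/6. At 24 h these shares were 8.6% and 15.7%. Lists with a single gene called higher stand near or below the share called higher. Of 11 measured FOXO targets beyond the members, 9 were lower and 1 higher at 24 h in C57BL/6, with a median of -1.31 beside 0.04 over all genes. S1pr1, also a target of Klf2, fell by -2.56 ± 0.20, the cyclin-dependent kinase inhibitor Cdkn1b by -1.79 ± 0.17, the cyclin-like Ccng2 by -1.73 ± 0.13 and the stress regulator Gadd45a by -1.91 ± 0.33 (adjusted p = 2.65e-09, 5.82e-08, 2.78e-09 and 1.24e-04). Ddit4, an inhibitor of mTORC1, was the gene that rose (1.25 ± 0.38, adjusted p = 0.0167). At 4 h 4 of the 11 were lower, S1pr1 by -1.67 ± 0.18. The counts of lower genes at 24 h were 9 in B6.Sle1b (13.4% of all genes) and 9 in Sle1b.BACSlamf6-H1 (11.9%).

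Genes of naive T cell homing and survival were lower in 6 of 9 measured and higher in 1 of 9 at 24 h in C57BL/6, among them the interleukin 6 receptor chains Il6ra (-1.62 ± 0.22) and Il6st (-1.71 ± 0.21). Treml2 was the higher one (2.03 ± 0.18, adjusted p = 1.25e-08). Of 16 other quiescence genes 8 were lower, led by Mxd4, an antagonist of MYC (-3.27 ± 0.22, adjusted p = 3.13e-10), Tsc22d3 (-1.94 ± 0.23) and the TGF-beta receptor chain Tgfbr2 (-1.74 ± 0.23), and 0 were higher. In the wider Krüppel-like family, 5 of 12 measured genes were lower and 0 higher. Klf4 fell by -2.92 ± 0.27 and Klf6 by -1.96 ± 0.15 (adjusted p = 3.28e-08 and 1.97e-09), followed by Klf11 (-1.23 ± 0.23), Klf13 (-1.15 ± 0.26) and Klf9 (-0.92 ± 0.16). These lists share some genes, S1pr1 and Cdkn1b among them.

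Genes of activation moved the other way over the same arrays. At 4 h in C57BL/6, 10 of 15 early activation genes were higher, with Myc at 2.30 ± 0.25 and Il2ra, the high-affinity interleukin 2 receptor chain, at 2.42 ± 0.26 (adjusted p = 1.54e-06 and 1.26e-06). At 24 h 9 were higher and 2 lower, with Myc at 3.01 ± 0.28 and Il2ra at 3.57 ± 0.29. Cell cycle genes were higher in 1 of 19 at 4 h and in 17 of 19 at 24 h in C57BL/6, for example Mcm3 (3.31 ± 0.44) and Rrm2 (3.48 ± 0.50). Among genes of effector differentiation, a process that Bach2 is known to restrain, 4 of 10 were higher and 1 lower at 24 h in C57BL/6. The 1 lower is near the share of all genes called lower. Gzmb (4.36 ± 0.41), the cytotoxic protease granzyme B, Tbx21 (3.24 ± 0.50), the T helper 1 factor T-bet, and Batf (1.67 ± 0.21) rose, and Bcl6, the factor of follicular helper cells, fell by -2.53 ± 0.39. CD4 T cell markers had a median of -0.41 at 24 h in C57BL/6, with 3 of 9 lower and 1 higher.

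The genes whose group means ran most like each member's were found over the 9 group means among 5149 genes with a mean log2 of at least 6 (Pearson r, a description). They were Ets1 (r = 0.997) and Pan3 for Klf2, Ccng2 (0.996) and Zmym2 for Klf3, Ing1 (0.985) and Mef2d for Lef1, Helz (0.993) and Mef2d for Foxp1, Aff4 (0.999) and Avl9 for Tob1, Il18r1 (0.995) and Wsb1 for Btg1 and Tdrp (0.998) and Eif2ak3 for Fbxo32. The closest to Bach2 were Styx (0.961) and Hsd17b4, at lower r than for the other members. Over single arrays the r of Bach2 with Styx was 0.70, against 0.99 for Klf2 with Ets1. Between members, r over the group means ran from -0.58 for Bach2 with Fbxo32 to 0.995 for Klf2 with Klf3.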

How the data were processed

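RNA of 28 samples was read on HT MG-430 PM arrays from Affymetrix, each array holding a single sample. The deposited values are linear intensity per probe set. Per the submitters' processing notes they come from RMA (whose release is not given in the sources used here), a method that subtracts background, sets arrays to a common distribution and combines the probes of a set. The deposited probe set values nevertheless differed in distribution between arrays, with medians of 9.06 to 10.5 and 75th percentiles of 34.2 to 53.3. The reason for this was not tested. Log2 was taken without filter or pseudocount. Of 45141 probe sets, 28898 name a single gene and were used and 551 name several; 28689 were found in RefSeq (GRCm38.p6) by Entrez identifier for current symbols.

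Groups came from the labels' strain and time. With limma 3.58.1 in R 4.3.3, a mean was fitted for each of the 9 groups on 26 arrays, with 27 contrasts and eBayes, so the spread is shared. Adjusted p-values are Benjamini-Hochberg over the 17097 genes (or 45037 probe sets) of a contrast. Background is the 95th percentile of 23 non-specific control probe sets. The fit was tested on simulated data. Whether arrays of a group are separate animals is not in the labels, and p-values then reflect only how far these samples spread, part of which may be technical. Identical arrays were not found.

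The members and the 22 gene lists were chosen with earlier results of these data known. All members are named; from each list, family members and up to 4 other genes with the largest C57BL/6 difference at 24 h, and for each member the 2 genes most alike. Ddit4 was named after its value was seen. Alternatives were another normalization, the 75th percentile, array weights, probe set choice, the technical arrays, a replicate block and leaving out each array.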

Additional observations from a re-analysis of the deposited data

How the results depend on the processing

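Over 47 other settings and 3872 values of single members, 3665 kept their direction and side of the threshold, 110 lost a call, 57 gained a call and 40 changed sign. Causes were not tested. In 26 of the settings 1 array was left out. A difference between groups that do not hold that array cannot move, and only the shared spread and the adjustment can alter its call. Many values were therefore bound to stay the same, and the tally does not measure stability. The replicate block gave 5 members called in B6.Sle1b at 4 h against 4 and changed no other count of members called. The labels do not say that a number marks a shared source, so numbers were not taken as pairs and the main fit takes no account of such a source. Same-numbered arrays of a strain did not all deviate together (median r = 0.158, lowest -0.358, 25 pairs), with r over 0.1 in 15 of the 25. For differently numbered arrays of a strain the median r was lower, at -0.0951, with r over 0.1 in 11 of 50 pairs. That check cannot decide, since the deviations of the members also went with the 75th percentile of an array. Marker sums hint at a shared source in part, which was not tested: the neutrophil sum was highest on array 1 at each time in C57BL/6, lowest on array 3 in B6.Sle1b (109, 115 and 177) and lowest on array 1 in Sle1b.BACSlamf6-H1 (157, 121 and 151). The B cell sum in C57BL/6 fell with the array number at each time (2440, 2277 and 1731, then 2422, 2015 and 1576, then 1972 and 1532). The erythroid sum in Sle1b.BACSlamf6-H1 was lowest on array 1 (841, 642 and 193). In B6.Sle1b the array with the highest neutrophil sum changed at 24 h. Leaving out single arrays gave 2 to 4 members called from 4 h to 24 h in C57BL/6 (2 without 4 h array 1 or either 24 h array). Array weights, whose estimate stopped before convergence, gave 7 members called in B6.Sle1b at 4 h, as did leaving out the 3 arrays of lowest 75th percentile outside 24 h or, added after seeing the data, the 4 lowest at any time. All genes called there numbered 4497, 2011 and 2075, against 973 in the main fit. The fourth array, of B6.Sle1b at 24 h, has no part in these differences or in those given below for the 3 or the 4 arrays. For unstimulated cells, weights gave 1 member called for B6.Sle1b against C57BL/6 (beside 2613 of the 17097 genes). They gave 4 for Sle1b.BACSlamf6-H1 against B6.Sle1b (4018 genes) and 1 against C57BL/6 (77 genes). The main fit called 21, 14 and 10 genes in these comparisons. With the 75th percentile as a covariate 1 and 1 members were called for the latter pair of comparisons (96 and 22 genes). Weights also gave 1 member called in the response difference of B6.Sle1b against C57BL/6 at 4 h (1310 genes, against 0 in the main fit). They gave 1 for that of Sle1b.BACSlamf6-H1 against B6.Sle1b at 24 h (1262 genes, against 1). Where weights called so many genes, the member counts are not read as a result about the members.

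Signs turned mostly where the main difference was near 0. From 4 h to 24 h, Lef1 ranged over single arrays left out from -0.12 to 0.40 in C57BL/6 and from -0.27 to 0.42 in Sle1b.BACSlamf6-H1, where it was -0.10 after a second quantile normalization, -0.069 with the 75th percentile, -0.18 with weights and -0.27 without the 3 or the 4 low-percentile arrays. Over the same step, Foxp1 probe sets 4 and 6 gave 0.23 and 0.50 in C57BL/6, 0.25 and 0.078 in B6.Sle1b and 0.59 and 0.61 in Sle1b.BACSlamf6-H1. Bach2 in Sle1b.BACSlamf6-H1 at 24 h ranged from -0.15 to 0.20 over single arrays left out and was -0.065 after a second quantile normalization, -0.0059 after median centring, -0.12 with weights, -0.056 as a mean of probe sets and -0.22 for probe set 2. Bach2 probe set 3 gave -0.018 for Sle1b.BACSlamf6-H1 minus B6.Sle1b over the times, 0.033 for that pair's response at 4 h and 0.037 for the response against C57BL/6 at 24 h. Tob1 probe set 2, under background, gave 0.0039 at 24 h and 0.045 from 4 h to 24 h in Sle1b.BACSlamf6-H1, 0.17 for B6.Sle1b minus C57BL/6 at 24 h, and -0.0053 at 24 h and -0.12 over the times for Sle1b.BACSlamf6-H1 minus B6.Sle1b. Btg1 at 4 h was -0.29 in C57BL/6 and -0.15 in B6.Sle1b as a mean of probe sets, -0.64 and -0.33 for probe set 2 and -0.037 and -0.049 without the 3 or the 4 low-percentile arrays, ranging over single arrays left out from -0.037 to 0.15 and from -0.049 to 0.12.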
